A study of Mus musculus with 12 samples.

Results

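The 38 genes described here encode the B cell receptor (BCR) signaling chains, the co-receptors and inhibitory receptors beside them, the enzymes and adaptors that carry the signal, and other surface proteins of B cells. They were chosen by gene symbol and looked up in every RNA-seq file after removal of a suffix that 3 of the names carry. All 38 were found among the 24189 genes listed in all 10 libraries. The question was how much of this B cell program plasmablasts (PBs) and plasma cells (PCs) retain, and how it differs without Xbp1 or Mist1, which are transcription factors of antibody-secreting cells.

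The libraries come from 5 groups of C57BL/6 mice with 2 libraries each. The PBs were made from splenic B cells over 8 days in the iGB system, in which irradiated 40LB feeder cells supply CD40 ligand and BAFF and the cytokine is changed from IL-4 to IL-21 midway, and were sorted by a gate that included CD138+ and CD23- staining. *Xbp1* fl/fl PBs carry the floxed allele without Cre and served as controls. *Cd23*-Cre *Xbp1* fl/fl PBs are called Xbp1-deficient PBs below, and *Bhlha15* CreER/CreER PBs carry CreER in both copies of *Bhlha15*, the gene for Mist1, in all cells of the mouse. The PCs came from the spleen of mice immunized with NP-KLH in alum 7 days earlier and were sorted for TACI and CD138. The control PCs are labelled wildtype and are given as *Bhlha15* fl/fl in the study's methods, and *Cd23*-Cre *Bhlha15* fl/fl PCs are called Mist1-deficient PCs. *Cd23*-Cre begins to delete in immature B cells, so that both floxed genes are lost before the B cells are activated. Mist1 binding was mapped by Bio-ChIP-seq, a pulldown of the biotin-tagged protein, in *Bhlha15* fl/fl *Rosa26* BirA/BirA CD138+ PBs after 4 days of LPS. The study describes the 2 libraries of a genotype as independent experiments and the labels do not say whether they came from separate mice, so that the p-values measure the spread between libraries, which may be technical.

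The BCR consists of a membrane immunoglobulin and the signaling chains CD79A and CD79B, whose tyrosine motifs are phosphorylated by Src-family kinases such as LYN, BLK and FYN. SYK and BTK then act through the adaptor BLNK on phospholipase C and PI3 kinase, and from there on the NF-kB, NFAT and RAS pathways. Inhibitory receptors such as CD22, CD72, Siglec-G and the Fc receptor FcγRIIB recruit the phosphatases SHP-1 and SHIP-1 and dampen the signal. Much of this equipment is known to be turned down as B cells become antibody-secreting cells, under the repressor Blimp1.

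Mist1 is a basic helix-loop-helix protein that binds E-boxes, and the regions it bound give the sequence context of the largest changes. Of the genes that changed in Mist1-deficient PCs and had a Mist1 region at a transcription start site (TSS), *Fcgr2b*, *Pik3ap1*, *Fyn* and *Vav2* changed most. Their regions, found in both Bio-ChIP experiments, were 2742 bp, 2544 bp, 1304 bp and 1709 bp wide. Bases of 3 of these regions follow on the strand of the gene in mm9 coordinates, with E-boxes (CANNTG) in capitals. Those of *Fcgr2b* and *Pik3ap1* lie around the region centre, without untranslated sequence. That of *Vav2* was cut to 30 bases around the E-box nearest the centre, since its centre lies in untranslated sequence. The *Fcgr2b* stretch at chr1:172905921-172906031 lies in an intron with its region centre 263 bp downstream of a TSS, the *Pik3ap1* stretch at chr19:41458953-41459102 lies in an intron with its centre 533 bp downstream, and the *Vav2* stretch at chr2:27282030-27282059 lies in the 5′ untranslated part of an exon with its centre 538 bp downstream.
Fcgr2b: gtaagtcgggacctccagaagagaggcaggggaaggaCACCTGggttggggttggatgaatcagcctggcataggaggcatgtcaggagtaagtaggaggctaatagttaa
Pik3ap1: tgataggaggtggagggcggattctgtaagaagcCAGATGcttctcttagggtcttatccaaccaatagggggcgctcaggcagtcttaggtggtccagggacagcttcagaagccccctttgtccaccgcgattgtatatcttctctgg
Vav2: gctaccctgagcCAGCTGgccagcggccgc
The *Fcgr2b* and *Pik3ap1* stretches hold 1 E-box each, and the E-box around which the *Vav2* stretch was cut is CAGCTG. The 150 bp around the centre of the *Fyn* region hold no E-box and lie within untranslated sequence. Over all 23806 common regions, 66.9% held an E-box of any kind in the central 150 bp and 22.3% held CAGCTG, read on both strands, with CAGCTG counted in both shares. A match is a description of the letters and not a measured binding site.

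The values are TPM, the share of a gene among all transcripts of a library, which correct for gene length, sum to 1000000 in each library without immunoglobulin and T cell receptor genes and keep no record of depth. Between 11514 and 12024 genes reached 1 TPM per library. *Bhlha15* was listed at 176 and 159 TPM in control PBs, at 3.57 and 2.60 in Xbp1-deficient PBs, at 0.210 and 0.551 in *Bhlha15* CreER/CreER PBs, at 258 and 242 in wildtype PCs and at 14.4 and 16.6 in Mist1-deficient PCs. *Xbp1* RNA was at 3168 and 3043 TPM in control and 1981 and 2024 TPM in Xbp1-deficient PBs, but a gene-level value includes exons outside a floxed segment and does not measure the deletion. *Prdm1*, which encodes Blimp1, was at 175 and 198 TPM in wildtype and 237 and 203 TPM in Mist1-deficient PCs, with an adjusted p of 0.0793 in limma. All 12 plasma cell markers reached 1 TPM in every library, and the PB libraries held 1015 to 1952 TPM of 14 fibroblast feeder genes against 12.3 to 15.1 TPM in PCs. The 14 neutrophil genes, of which 13 are listed, summed to 13.5 and 14.1 TPM in control PBs, 142.2 and 143.2 TPM in Xbp1-deficient PBs and 486 to 1024 TPM in PCs. In PCs, 12 T cell markers summed to 119.2 to 176.7 TPM and 10 macrophage markers, of which 9 are listed, to 266 to 317 TPM, with every listed gene of both lists above 1 TPM. In PBs the same lists summed to 44.5 to 127.8 and 50.1 to 183.6 TPM, and *Cd8a* and *C1qa* were at 0 in all 6 PB libraries.

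All 38 genes were above 1 TPM in every library and together made up between 0.825% and 0.977% of the TPM. *Cd79b* and *Cd24a* were at 1015 TPM or more in every library, and *Cd53*, *Cd79a*, *Cd37* and *Cd81* at 328 TPM or more. *Cd79b* ranged from 1196 ± 49.5 TPM (SD, n = 2) in control PBs to 2275 ± 8.44 TPM in Xbp1-deficient PBs. *Cd24a*, which encodes the heat-stable antigen of B cells, lay at 1361 ± 1.16 TPM in control PBs and 1034 ± 19.4 TPM in Mist1-deficient PCs. At the other end, *Bank1*, *Cr2*, *Ccr7* and *Cd38* were below 11 TPM in every PB library and above 12 TPM in every PC library. Libraries of a group lay close for most genes, with a median ratio of the larger to the smaller value between 1.03 and 1.09.

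**Figure D1:**
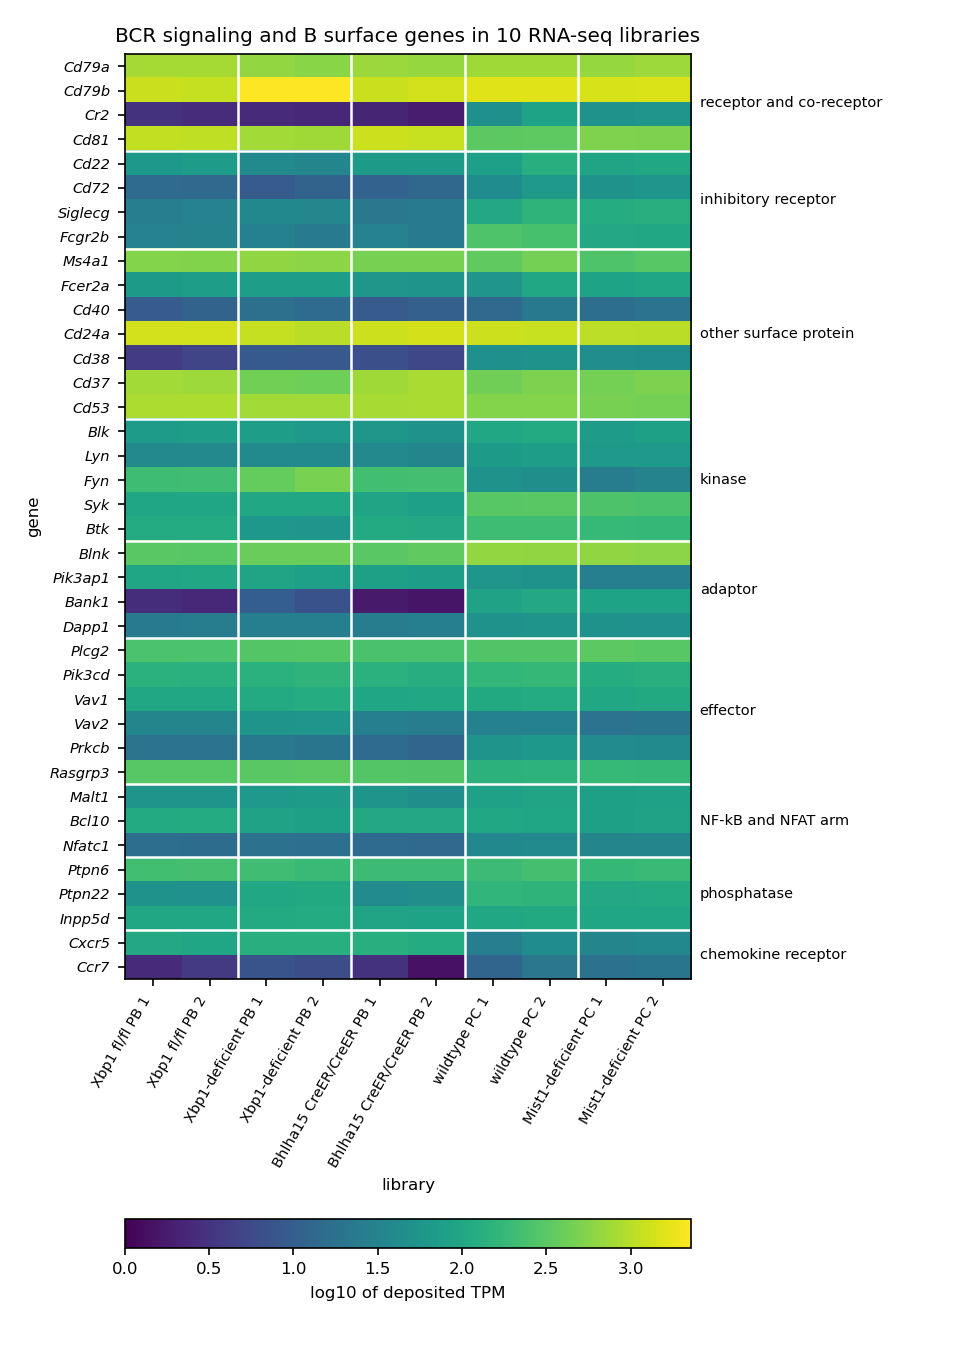
Heat map of the log10 deposited TPM of the 38 genes (rows, grouped by role) in the 10 libraries (columns, 2 per group). *Bank1*, *Cr2*, *Ccr7* and *Cd38* are dark in the 6 PB columns and lighter in the 4 PC columns, while *Cd79b* and *Cd24a* are bright in all.

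Wildtype PC replicate 2 stood above replicate 1 in part of the B cell surface genes. Of the 38 genes, 9 were more than 1.25-fold higher in replicate 2 and none was higher by this ratio in replicate 1. In Mist1-deficient PCs 0 genes passed this ratio, and 2 or 3 did in each PB group. The share of all genes past it was not counted. Over genes at 1 TPM in both libraries, the median absolute log2 difference, centered on its median, was 0.121 in wildtype PCs. It was 0.0767 in Mist1-deficient PCs and 0.0907 to 0.142 in the PB groups. The 9 genes were *Cr2*, *Cd22*, *Cd72*, *Siglecg*, *Ms4a1*, *Fcer2a*, *Cd40*, *Cxcr5* and *Ccr7*. *Cr2*, the complement receptor CD21, had the largest ratio at 1.83. Markers of mature B cells that are not among the 38 genes moved with them, as *Pax5* was at 28.8 and 44.0 TPM and *Ciita* at 17.5 and 30.6 TPM in replicates 1 and 2. Of the 14 mature B cell markers, 13 were higher in replicate 2 and *Cd74* was lower, at 8999.7 and 7616 TPM. All 14 were above 1 TPM in both libraries and summed to 13013 and 12251 TPM with *Cd74* and to 4013 and 4635 TPM without it. The neutrophil genes summed to 1024 TPM in replicate 1 and 486 TPM in replicate 2. In PCs against PBs, the changes of those of the 9 genes that passed the test are given with and without replicate 2. For Mist1-deficient PCs the median change of the 38 genes is given without it, but not the change of every gene.

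The first comparison set wildtype PCs beside control PBs and asked which parts of the B cell program lie higher or lower in PCs from immunized mice. PCs held more RNA of the inhibitory receptors, of *Bank1*, *Cr2*, *Cd38* and *Ccr7* and of most kinases and adaptors, and less of *Fyn*, *Cd81*, *Cxcr5*, *Rasgrp3* and *Pik3ap1*. In limma with Benjamini-Hochberg adjustment over 13230 genes, 21 of the 38 genes were higher and 12 were lower in PCs at an adjusted p under 0.05. Of all genes tested, 37.6% were higher and 38.4% were lower, 76% in all, and the median log2 change was 0.35 for the 38 genes and 0.01 for all genes. With a fold above 3 and more than 5 TPM in the higher group, 8 genes were higher and 3 lower, where the shares of all genes were 7.77% and 6.19%. Stage, culture against mouse, the genotype of the control and the series of libraries cannot be told apart in this contrast. The marker lists of other cells given above also differed between PCs and PBs, and their part in these results was not tested. In bulk samples, fewer cells that express a gene and less RNA per cell cannot be told apart either.

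All 4 inhibitory receptors were called higher in PCs, against 37.6% of all genes. *Fcgr2b*, the inhibitory receptor for IgG complexes, was at 31.2 and 31.7 TPM in control PBs and 271 and 242 TPM in PCs (log2 fold change ± standard error 2.91 ± 0.12, adjusted p = 8.99e-08). Both PC values lay far above both PB values. *Siglecg*, a sialic acid-binding receptor, rose from 27.5 and 31.2 to 106 and 154 TPM (2.01 ± 0.15, adjusted p = 2.35e-06) and *Cd72*, a C-type lectin that recruits SHP-1, from 15.0 and 14.1 to 43.1 and 63.5 TPM (1.73 ± 0.18, adjusted p = 1.85e-05). *Cd22*, which binds sialic acids on the same cell, was at 61.4 and 70.4 TPM in control PBs and 78.9 and 126 TPM in wildtype PCs (0.49 ± 0.17, adjusted p = 0.0281). Without wildtype PC replicate 2 the change of *Cd22* was 0.18 with an adjusted p of 0.205, where the remaining PC library is taken to vary as the other groups do, and its call was also lost without *Xbp1* fl/fl PB replicate 1 (0.41, adjusted p = 0.137) or 2 (0.56, adjusted p = 0.0509). The other 3 calls were retained without replicate 2, at 3.02 for *Fcgr2b*, 1.77 for *Siglecg* and 1.48 for *Cd72*.

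Among the receptor chains and co-receptors, the signaling chains differed little. *Cd79a* was at 802 and 814 TPM in PBs and 759.9 and 756 TPM in PCs (-0.21 ± 0.07, adjusted p = 0.0281), a small difference whose call was lost without scaling (-0.09, adjusted p = 0.193), without *Xbp1* fl/fl PB replicate 1 (adjusted p = 0.102) or 2 (0.0716) and without wildtype PC replicate 2 (0.124), and whose sign turned after quantile normalization. *Cd79b* was at 1231 and 1161 TPM in control PBs and 1544 and 1579.6 TPM in wildtype PCs (0.27 ± 0.08, adjusted p = 0.016), with adjusted p values of 0.123 without *Xbp1* fl/fl PB replicate 2 and 0.0573 without wildtype PC replicate 1. The co-receptor genes moved apart. *Cr2* rose from 3.08 and 2.65 to 49.0 and 89.7 TPM (4.38 ± 0.23, adjusted p = 2.99e-07, and 3.97 without replicate 2), whereas *Cd81*, a tetraspanin of the B cell co-receptor complex, fell from 1127 and 1075 to 328 and 337 TPM (-1.84 ± 0.06, adjusted p = 3.48e-08). The exons of *Cd81* overlap a gene on the opposite strand in the annotation and the strand setting of the counting is not given in the sources used here, so that its reads may include that gene, as may those of *Cd72*, *Cd37*, *Lyn* and *Ptpn6*.

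Of the other surface genes, *Cd38*, an ecto-enzyme of B cells, rose from 3.82 and 4.97 to 48.2 and 53.6 TPM (3.40 ± 0.12, adjusted p = 4.57e-08). *Ms4a1*, which encodes CD20, fell from 535 and 529 to 350.2 and 448 TPM (-0.54 ± 0.11, adjusted p = 0.00131), and the tetraspanins *Cd37* and *Cd53* fell by 0.80 and 0.82 on the log2 scale. *Cd40*, the receptor for CD40 ligand, was called higher (0.66 ± 0.21, adjusted p = 0.0181), but the change was 0.33 with an adjusted p of 0.142 without wildtype PC replicate 2 and 0.54 with 0.107 without *Xbp1* fl/fl PB replicate 1. *Cd24a* was called lower at -0.27 ± 0.10, but quantile normalization turned it to 0.0261, and its adjusted p was 0.12 without *Xbp1* fl/fl PB replicate 1, 0.0722 without replicate 2 and 0.167 without wildtype PC replicate 2. *Fcer2a*, the gene for CD23 against which the PBs were sorted, was still at 67.2 and 76.9 TPM in control PBs and at 56.6 and 103 TPM in wildtype PCs (-0.02 ± 0.20, adjusted p = 0.919). The 2 chemokine receptors moved in opposite directions. *Cxcr5*, which guides B cells to follicles, fell from 106 and 96.9 to 27.5 and 43.4 TPM (-1.66 ± 0.16, adjusted p = 1.26e-05), and *Ccr7*, which guides lymphocytes to T cell zones, rose from 2.52 and 3.71 to 12.6 and 21.3 TPM (2.27 ± 0.32, adjusted p = 1.68e-04). Without wildtype PC replicate 2 the changes were -0.69 for *Ms4a1*, -1.96 for *Cxcr5* and 1.93 for *Ccr7*, all past the test.

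Inside the cell, 4 of 5 kinases were called higher in PCs, against 37.6% of all genes. *Syk* rose from 97.9 and 94.6 to 309 and 320.1 TPM (1.59 ± 0.05, adjusted p = 3.48e-08), *Lyn* by 0.81, *Btk* by 0.71 and *Blk* by 0.43 on the log2 scale. *Fyn* was the exception, at 209.6 and 210.1 TPM in PBs and 51.4 and 47.6 TPM in PCs (a 4.58-fold decrease, adjusted p = 6.90e-07). Of the adaptors, *Bank1*, a scaffold that links Src kinases to calcium release, had the largest change of the 38 genes, from 2.78 and 2.4 to 86.1 and 105 TPM (5.04 ± 0.17, adjusted p = 3.77e-08). *Blnk*, the adaptor that links SYK to phospholipase C, rose from 317 and 309 to 656 and 627 TPM (0.92 ± 0.08, adjusted p = 5.04e-06), and *Dapp1*, a PI3 kinase-dependent adaptor, by 0.94. *Pik3ap1*, the B cell adaptor for PI3 kinase, fell from 98.3 and 99.2 to 55.6 and 53.1 TPM (-0.97 ± 0.08, adjusted p = 3.52e-06). The effectors were split, as *Prkcb*, which encodes protein kinase C beta, rose from 19.0 and 18.8 to 54.4 and 61.6 TPM and *Rasgrp3*, an exchange factor for RAS, fell by 1.17. *Pik3cd* and *Vav2* changed by 0.21 and -0.28, and the call of *Pik3cd* was lost without *Xbp1* fl/fl PB replicate 2 (0.16, adjusted p = 0.0917). *Plcg2* and *Vav1* did not pass the test, with changes of 0.01 ± 0.06 and 0.03 ± 0.06. In the NF-kB and NFAT arm *Nfatc1* rose by 1.15, *Malt1* by 0.56, and *Bcl10* fell by 0.36, while of the phosphatases *Ptpn22* rose by 1.52 and *Ptpn6* and *Inpp5d* were at -0.16 ± 0.08 and -0.02 ± 0.05 without passing the test.

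**Figure D2:**
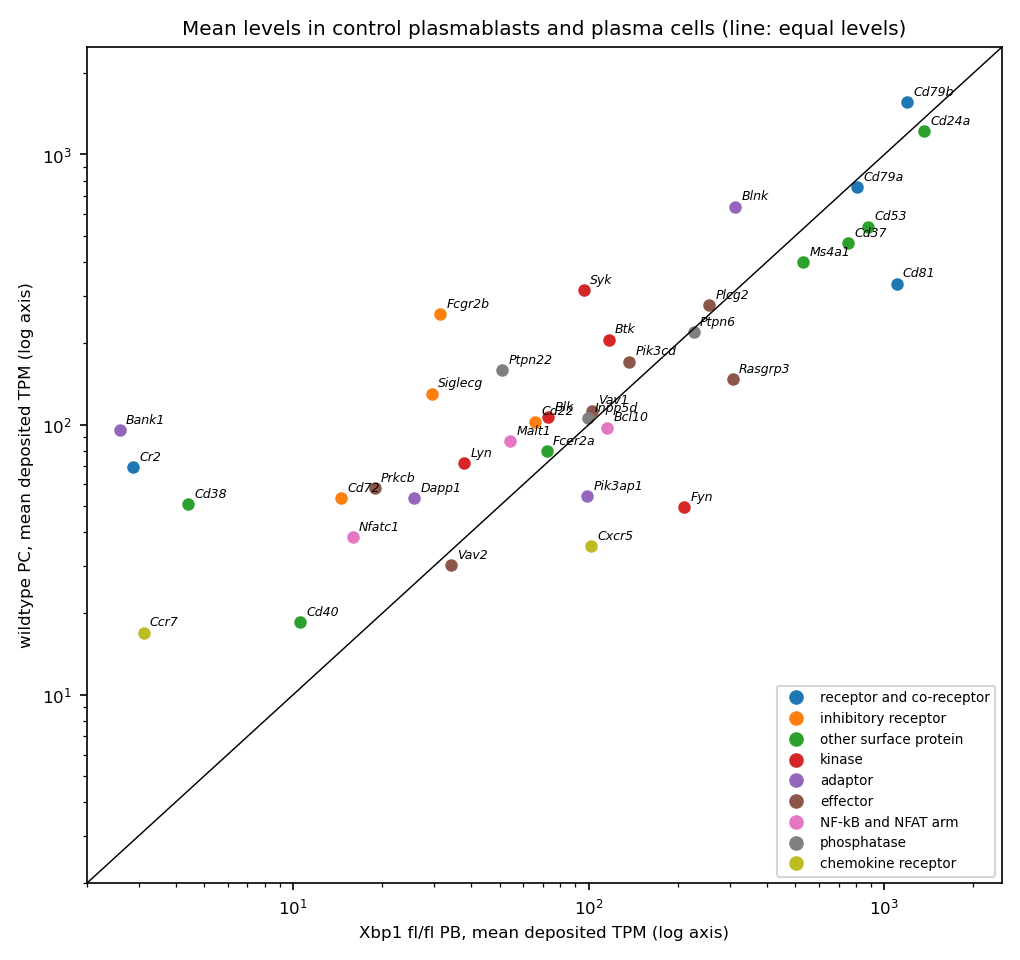
Mean deposited TPM of each gene in control PBs (x axis) and wildtype PCs (y axis), both on log axes, with n = 2 libraries per mean and colors for roles. Points far above the line of equal levels include *Bank1*, *Cr2*, *Cd38* and *Fcgr2b*, and points below it include *Fyn*, *Cd81*, *Cxcr5* and *Pik3ap1*.

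The next comparison asked how the genes differ in PBs that lack Xbp1. Xbp1-deficient PBs held less RNA of *Btk*, *Cd37*, *Cd22*, *Cd81* and *Cd79a* and more of *Bank1*, *Ccr7*, *Ptpn22*, *Fyn*, *Cd38* and *Cd79b* than control PBs. In limma, 12 of the 38 genes were lower and 7 were higher at an adjusted p under 0.05, and 18% and 10.3% of the 12125 genes tested were lower and higher, 28.3% in all. The median log2 change was -0.10 for the 38 genes and 0.00 for all genes, and no gene of the 38 passed the 3-fold call, which 1.63% and 0.239% of all genes passed in these directions. The split depended on scaling. The fold changes were fitted after the libraries had been scaled by the median of ratios, and without scaling the median of all genes moved to 0.21, so that the ratios of the deposited TPM lie above the fitted changes. Without scaling, 10 of the 38 genes were lower and 16 higher, against 1357 and 3423 of all genes. Quantile normalization gave 11 lower and 12 higher, against 1965 and 2511 of all genes. With any 1 library of these 2 groups left out, fewer of the 38 genes and fewer of all genes were called lower. The calls of *Bank1*, *Bcl10*, *Btk*, *Cd22*, *Cd37*, *Cd79a*, *Cd79b*, *Cd81*, *Fyn*, *Ptpn22* and *Vav2* were retained in all 13 alternatives, and those of the other 8 genes were lost in at least 1. Without *Xbp1* fl/fl PB replicate 1 the calls of these 8 were lost, with adjusted p values from 0.0565 for *Cd38* to 0.253 for *Ccr7*. Without *Xbp1* fl/fl PB replicate 2 those of *Ccr7*, *Cd24a*, *Cd53*, *Fcgr2b* and *Ptpn6* were lost (0.0586 to 0.102). Without Xbp1-deficient PB replicate 1 those of *Ccr7*, *Cd53* and *Cd72* were lost (0.0785 to 0.198), and without replicate 2 those of *Ccr7*, *Cd24a*, *Cd53*, *Fcgr2b*, *Pik3ap1* and *Ptpn6* (0.0547 to 0.177).

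The BCR signaling chains changed in opposite directions in Xbp1-deficient PBs. *Cd79a* fell from 802 and 814 TPM in control PBs to 656 and 585 TPM (log2 fold change -0.59 ± 0.09, adjusted p = 0.00211). *Cd79b* rose from 1231 and 1161 to 2281 and 2269 TPM (0.72 ± 0.12, adjusted p = 0.00311). In both cases the 2 mutant libraries lay outside the range of the controls, and the direction was the same without scaling. *Cd81* fell from 1127 and 1075 to 792 and 763 TPM (-0.71 ± 0.10, adjusted p = 0.00104). *Cr2* was at 3.08 and 2.65 TPM in control PBs and 2.48 and 2.38 TPM in Xbp1-deficient PBs and did not pass the test (-0.43 ± 0.23, adjusted p = 0.212).

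Of the inhibitory receptors, *Cd22* fell the most, from 61.4 and 70.4 to 40.8 and 34.9 TPM (-1.01 ± 0.10, adjusted p = 1.60e-04). *Cd72* was at 15.0 and 14.1 TPM in control PBs and 9.39 and 11.8 TPM in Xbp1-deficient PBs (-0.67 ± 0.16, adjusted p = 0.0151) and *Fcgr2b* at 31.2 and 31.7 TPM in control PBs and 29.6 and 24.6 TPM in Xbp1-deficient PBs (-0.43 ± 0.12, adjusted p = 0.0312). The call of *Cd72* was lost in 3 and that of *Fcgr2b* in 7 of 13 alternatives. *Siglecg* did not pass the test (0.10 ± 0.12, adjusted p = 0.57). The tetraspanin *Cd37* fell from 772 and 734 to 441 and 411 TPM (-1.03 ± 0.12, adjusted p = 4.17e-04), *Cd24a* by 0.55 and *Cd53* by 0.38 on the log2 scale. *Cd38* rose from 3.82 and 4.97 to 8.88 and 8.79 TPM (0.80 ± 0.16, adjusted p = 0.00625). *Ms4a1* and the gate gene *Fcer2a* did not pass the test, at 0.01 ± 0.09 and -0.15 ± 0.07, and *Cd40* reached 0.42 ± 0.15, adjusted p = 0.0716.

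Among the kinases, *Btk*, whose loss impairs B cell development and BCR signaling, had the largest decrease of the 38 genes. It was at 118 and 116 TPM in control PBs, 60.9 and 57.9 TPM in Xbp1-deficient PBs and 114 and 106 TPM in *Bhlha15* CreER/CreER PBs (-1.18 ± 0.07, adjusted p = 1.17e-05 against controls). *Fyn* rose from 209.6 and 210.1 to 372 and 485 TPM (0.81 ± 0.13, adjusted p = 0.00208), and both mutant libraries lay above every other library. *Lyn*, *Syk* and *Blk* did not pass the test, with changes of -0.15 ± 0.07, -0.14 ± 0.07 and -0.26 ± 0.09. *Bank1* had the largest increase, from 2.78 and 2.4 to 10.1 and 6.93 TPM (1.45 ± 0.23, adjusted p = 0.00231), and stayed far below its level in PCs. *Pik3ap1* fell by 0.43 and *Vav2*, a guanine nucleotide exchange factor, rose from 34.4 and 33.8 to 54.0 and 55.8 TPM (0.48 ± 0.08, adjusted p = 0.00236). The other adaptors and effectors, *Blnk*, *Dapp1*, *Plcg2*, *Pik3cd*, *Vav1*, *Prkcb* and *Rasgrp3*, lay between -0.16 and 0.14 without passing the test.

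*Bcl10*, which joins MALT1 in the complex that activates NF-kB, fell from 114 and 117 to 86.7 and 82.1 TPM (-0.66 ± 0.08, adjusted p = 4.19e-04), while *Malt1* and *Nfatc1* were at 0.13 ± 0.08 and -0.08 ± 0.10. The phosphatases moved apart. *Ptpn22*, which dephosphorylates Src-family kinases, rose from 52.2 and 49.8 to 104 and 110.2 TPM (0.86 ± 0.11, adjusted p = 5.92e-04), *Ptpn6*, which encodes SHP-1, fell by 0.41, and *Inpp5d*, which encodes SHIP-1, was at -0.01 ± 0.07. *Ccr7* was called higher at low levels, from 2.52 and 3.71 to 7.47 and 6.47 TPM (0.96 ± 0.31, adjusted p = 0.0496), and lost this call in 8 of 13 alternatives. Markers of other cells moved with the genotype in both directions. The macrophage markers summed to 149.95 and 151.3 TPM in control PBs and 53.0 and 50.1 TPM in Xbp1-deficient PBs, mostly through *Cd68* at 128 and 131 TPM and 16.9 and 18.7 TPM, and *C1qa* was at 0 in all 4 libraries. The fibroblast feeder genes summed to 1279 and 1539 against 1952 and 1785 TPM. Besides the neutrophil genes given above, the T cell markers summed to 45.2 and 53.0 TPM in control PBs and 118.3 and 127.8 TPM in Xbp1-deficient PBs, mostly through *Thy1* at 33.8 and 40.2 TPM in control PBs and 109 and 103 TPM in Xbp1-deficient PBs, while *Cd8a* was at 0 in all 4 libraries. The sum of the 12 plasma cell markers was 21133 and 21966 TPM in control and 8180 and 8257 TPM in Xbp1-deficient PBs. Most of this difference was *Mzb1*, at 14995 and 15573 TPM in control and 3707 and 3547 TPM in Xbp1-deficient PBs. Of the 12 markers, which include the targeted gene *Xbp1*, 8 were lower and 0 higher in limma. These are 66.7% of the markers, where 18% of all genes were lower and 28.3% changed in either direction. The 14 mature B cell markers summed to 38706 and 39445 against 34998 and 36348 TPM. The part of all these markers in the changes was not tested.

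**Figure D3:**
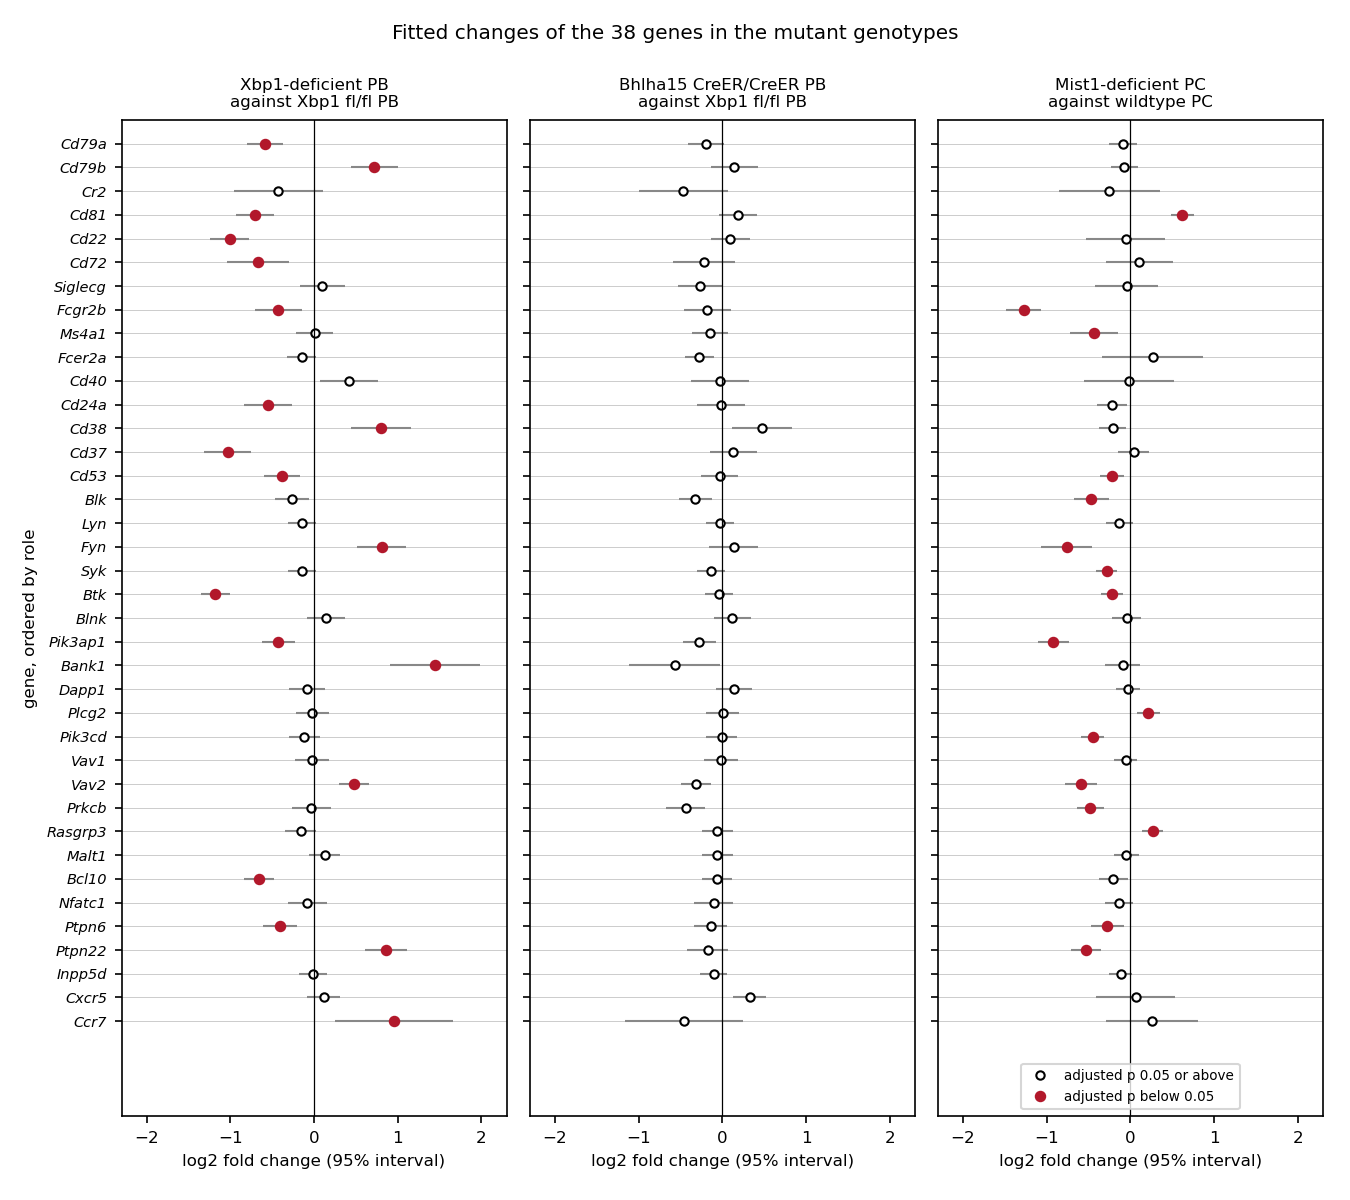
Fitted log2 fold changes (points) with 95% intervals (lines) for the 38 genes in 3 comparisons, filled where the adjusted p was below 0.05. Filled points lie on both sides of 0 for Xbp1-deficient PBs, none is filled for *Bhlha15* CreER/CreER PBs, and 13 of 16 lie below 0 for Mist1-deficient PCs.

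*Bhlha15* CreER/CreER PBs, set against the same *Xbp1* fl/fl controls, addressed loss of Mist1 in cultured PBs. No gene of the 38 passed an adjusted p of 0.05 in limma, and 0.272% and 0.0495% of all genes were lower and higher, 0.322% in all, with 0.033% and 0.0165% past the 3-fold call. At an unadjusted p under 0.05, 8 of the 38 genes passed, where 10.4% of all genes did, namely *Fcer2a*, *Cd38*, *Blk*, *Pik3ap1*, *Bank1*, *Vav2*, *Prkcb* and *Cxcr5*, and the calls stayed at 0 in all 13 alternatives. *Prkcb* was at 19.0 and 18.8 TPM in control and 14.8 and 12.4 TPM in *Bhlha15* CreER/CreER PBs (-0.44 ± 0.10, adjusted p = 0.178). *Vav2* was at 34.4 and 33.8 TPM in control PBs and 27.8 and 25.4 TPM in *Bhlha15* CreER/CreER PBs (-0.31 ± 0.08, adjusted p = 0.202). For 36 of the 38 genes the 95% interval of the log2 change lay within 1 on either side of 0, and for 33 it stayed within a 1.5-fold change. The intervals of *Bank1* and *Ccr7* reached further, at -1.11 to -0.03 and -1.17 to 0.24. The controls differ from these PBs in their floxed *Xbp1* allele as well as in *Bhlha15*.

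Since both PB mutants share their controls, they were also compared directly. Xbp1-deficient PBs were lower than *Bhlha15* CreER/CreER PBs in 8 and higher in 8 of the 38 genes, where 17.8% and 9.34% of all genes were lower and higher, 27.1% in all. Without scaling these counts were 6 and 19, and after quantile normalization 5 and 15. Of all genes, 2155 were lower and 1132 higher as reported. These counts were 1266 and 3977 without scaling and 1856 and 2325 after quantile normalization. *Bank1* alone of the 38 genes passed the 3-fold call, which 1.66% of all genes passed as lower and 0.239% as higher, at 10.1 and 6.93 TPM in Xbp1-deficient and 1.77 and 1.56 TPM in *Bhlha15* CreER/CreER PBs (2.02 ± 0.23, adjusted p = 3.80e-04). *Cd37*, *Btk*, *Cd22* and *Cd81* were lower at -1.16, -1.14, -1.10 and -0.90. *Ptpn22*, *Vav2* and *Fyn* were higher at 1.03, 0.79 and 0.67, and *Cd79a* and *Cd79b* differed by -0.39 and 0.58. The call of *Cd79b* was lost without Xbp1-deficient PB replicate 1 (adjusted p = 0.0639) or 2 (0.0575), and that of *Cd79a* without replicate 2 (0.16) and without scaling (0.101). *Bhlha15* RNA was below 4 TPM in both mutants. The 2 groups differ in *Cd23*-Cre, in the floxed *Xbp1* allele and in the germline CreER allele, and these cannot be told apart in the 16 differences.

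The Mist1-deficient PCs of immunized mice showed another pattern. *Fcgr2b*, *Pik3ap1*, *Fyn*, *Vav2*, *Ptpn22*, *Prkcb*, *Blk* and *Pik3cd* were lower than in wildtype PCs, and *Cd81* was higher. In limma, 13 of the 38 genes were lower and 3 higher at an adjusted p under 0.05, where 16.2% and 13.3% of the 12028 genes tested were lower and higher, 29.5% in all. The median log2 change was -0.12 for the 38 genes and 0.01 for all genes, and none of the 38 passed the 3-fold call, which 0.723% and 0.125% of all genes passed. Without Mist1-deficient PC replicate 1 or 2, the median log2 change of the 38 genes was -0.09 or -0.14. Without wildtype PC replicate 1 or 2 it was -0.19 or -0.11. Fewer of the 38 genes and fewer of all genes were called when either Mist1-deficient library was left out. The fit without a variance trend called 7 of the 38 genes lower and 1 higher. Of all genes it called 1396 lower and 844 higher, against 1953 and 1601 in the reported fit. The calls of *Cd81*, *Fcgr2b*, *Fyn*, *Pik3ap1*, *Pik3cd*, *Ptpn22* and *Vav2* were retained in all 13 alternatives. Those of *Btk*, *Cd53*, *Ms4a1*, *Plcg2*, *Ptpn6*, *Rasgrp3* and *Syk* were lost without either Mist1-deficient library, with adjusted p values from 0.0853 to 0.294, that of *Blk* without replicate 1 (-0.37, adjusted p = 0.083), that of *Prkcb* without replicate 2 (-0.47, adjusted p = 0.057), and that of *Ptpn6* also without wildtype PC replicate 2 (-0.20, adjusted p = 0.0805).

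*Fcgr2b* had the largest change of the 38 genes. It was at 271 and 242 TPM in wildtype PCs and 106 and 103 TPM in Mist1-deficient PCs (log2 fold change -1.27 ± 0.08, adjusted p = 0.00133), a 2.42-fold decrease. The libraries of both genotypes were well separated, and the Mist1-deficient PCs remained above all PBs. The other 3 inhibitory receptors did not pass the test, with intervals of -0.53 to 0.42 for *Cd22*, -0.29 to 0.51 for *Cd72* and -0.42 to 0.33 for *Siglecg*. In all 3 the Mist1-deficient values lay above wildtype replicate 1 and below replicate 2, so that the sign depends on the wildtype library. *Cd22* was at 78.9 and 126 TPM in wildtype and 91.1 and 98.6 TPM in Mist1-deficient PCs. *Cd72* was at 43.1 and 63.5 against 53.1 and 58.2 TPM, and *Siglecg* at 106 and 154 against 119 and 126 TPM. *Cd81* rose from 328 and 337 to 517 and 489.9 TPM (0.62 ± 0.06, adjusted p = 0.00213), and *Cd79a*, *Cd79b* and *Cr2* did not pass the test (-0.09 ± 0.07, -0.07 ± 0.06 and -0.25 ± 0.25).

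The 5 kinases shared a direction and 4 were called lower, against 16.2% of all genes. Of these 4 calls, that of *Fyn* alone was retained in all 13 alternatives. *Fyn* fell from 51.4 and 47.6 to 25.8 and 32.0 TPM (-0.76 ± 0.12, adjusted p = 0.00927) and *Blk* from 98.9 and 114 to 71.5 and 80.7 TPM (-0.47 ± 0.09, adjusted p = 0.0135). *Syk* and *Btk* fell by 0.29 and 0.22 on the log2 scale and *Lyn* was at -0.13 ± 0.06 without passing the test. Of the adaptors, *Pik3ap1* fell from 55.6 and 53.1 to 28.1 and 28.6 TPM (-0.92 ± 0.07, adjusted p = 0.00174), and *Blnk*, *Bank1* and *Dapp1* were at -0.05 ± 0.07, -0.09 ± 0.08 and -0.03 ± 0.06 and did not pass it. *Pik3cd*, the catalytic subunit of the PI3 kinase that PIK3AP1 recruits, fell from 167 and 174 to 121 and 127 TPM (-0.45 ± 0.06, adjusted p = 0.00431).

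Further down the pathway *Vav2* fell from 30.3 and 30.1 to 19.1 and 20.4 TPM (-0.59 ± 0.08, adjusted p = 0.00504) and *Prkcb* from 54.4 and 61.6 to 41.2 and 40.9 TPM (-0.48 ± 0.07, adjusted p = 0.00611). *Rasgrp3* and *Plcg2*, which encodes the phospholipase of the BCR pathway, were higher by 0.27 and 0.22. The call of *Rasgrp3* was lost in 3 and that of *Plcg2* in 4 of 13 alternatives. *Ptpn22* fell from 163 and 154 to 105 and 112 TPM (-0.53 ± 0.07, adjusted p = 0.00582), *Ptpn6* fell by 0.28 and lost its call in 8 alternatives, and *Inpp5d* was at -0.12 ± 0.05. The genes of the NF-kB and NFAT arm, *Bcl10*, *Nfatc1* and *Malt1*, reached -0.20, -0.14 and -0.05 and none passed the test. At the surface, *Ms4a1* fell by 0.44, from 350.2 and 448 TPM in wildtype replicates 1 and 2 to 269 and 309 TPM, and *Cd53* by 0.22. *Cd24a* and *Cd38* lay just above the threshold at adjusted p values of 0.065 and 0.057. *Cd37*, *Cd40*, *Fcer2a*, *Cxcr5* and *Ccr7* did not pass the test and lay between -0.02 and 0.27. In each of these genes the Mist1-deficient values lay above wildtype replicate 1 and below replicate 2. The mature B cell markers summed to 12251 and 13013 TPM in wildtype and 11410 and 11667 TPM in Mist1-deficient PCs. *Cd74* alone was at 8999.7 and 7616 TPM in wildtype replicates 1 and 2 and at 7998 and 8188 TPM in Mist1-deficient PCs. Of the 14 markers, 4 were lower and 0 higher at an adjusted p under 0.05 in limma. These are 28.6% of the markers, where 16.2% of all genes were lower and 29.5% changed in either direction. The neutrophil markers summed to 486 and 1024 TPM in wildtype and 583 and 884 TPM in Mist1-deficient PCs. The 12 T cell markers summed to 119.2 and 120.1 TPM in wildtype and 134.9 and 176.7 TPM in Mist1-deficient PCs, with a median log2 change of 0.43, 1 of 12 past the adjusted p and 6 of 12 at an unadjusted p under 0.05, and every one was above 1 TPM. The part of these markers was not tested.

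**Figure D4:**
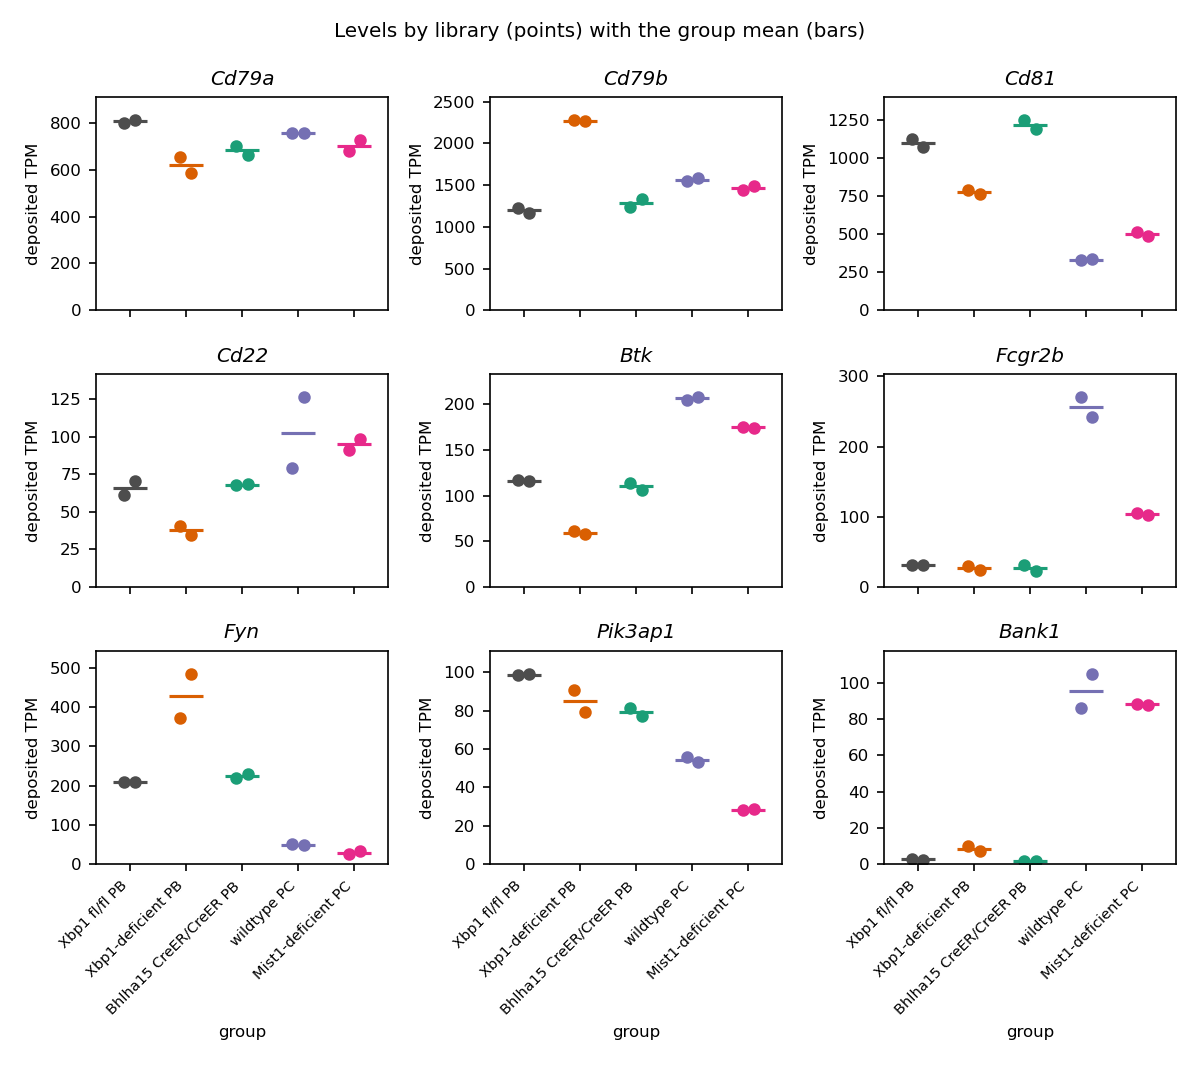
Deposited TPM of 9 genes in each library (points) with the group mean (bars) for the 5 groups, on linear axes that start at 0. *Cd79a* falls and *Cd79b* rises in Xbp1-deficient PBs, *Fcgr2b* is highest in wildtype PCs and lower in Mist1-deficient PCs, and *Fyn* is highest in Xbp1-deficient PBs and lowest in Mist1-deficient PCs.

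Set side by side, the calls in Xbp1-deficient PBs and Mist1-deficient PCs went in opposite directions for 4 of the 9 genes that changed in both. Of the 38 genes 23.7% changed in both, against 12% of the 10965 genes tested in both fits, and 44.4% of these were opposite, against 37% of all genes that changed in both. *Fyn*, *Vav2* and *Ptpn22* were higher without Xbp1 and lower without Mist1, and *Cd81* was lower without Xbp1 and higher without Mist1. *Fcgr2b*, *Cd53*, *Btk*, *Pik3ap1* and *Ptpn6* were lower in both. The sizes differed, as *Btk* changed by -1.18 in PBs and -0.22 in PCs, and *Fcgr2b* by -0.43 and -1.27. Over the 5 comparisons between groups, 35 of the 38 genes (92.1%) changed in at least 1, against 85.6% of all genes tested in each, and *Fcer2a*, *Vav1* and *Inpp5d* changed in none.

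A test of the difference between the Mist1 effect in PCs and the CreER effect in PBs, as an interaction in a model of all 10 libraries, called 4 of the 38 genes lower and 2 higher, against 4.17% and 1.94% of all 13230 genes, 6.11% in all. The genes with a more negative effect in PCs were *Fcgr2b* (-1.08 ± 0.17, adjusted p = 0.0125), *Fyn* (-0.89 ± 0.19, adjusted p = 0.0297), *Pik3ap1* (-0.63 ± 0.11, adjusted p = 0.0159) and *Pik3cd* (-0.43 ± 0.08, adjusted p = 0.0238). *Cd81* and *Rasgrp3* had a more positive effect in PCs, at 0.44 ± 0.09 and 0.34 ± 0.07 with adjusted p values of 0.0262 and 0.0263. Each of the 6 calls was lost in at least 3 of 17 alternatives, and the fit without a variance trend called none. Without Mist1-deficient PC replicate 1 none of the 6 passed (adjusted p 0.0534 to 0.112), without replicate 2 *Fyn* alone did (0.0513 to 0.0961 for the others), and without *Xbp1* fl/fl PB replicate 1 or 2 or wildtype PC replicate 1 the calls other than that of *Fcgr2b* were lost each time (0.052 to 0.102). *Fyn* also lost it without *Bhlha15* CreER/CreER PB replicate 2 (0.0815). *Prkcb* and *Vav2*, which were lower in Mist1-deficient PCs, did not differ beyond the threshold, at -0.03 ± 0.12 and -0.26 ± 0.09.

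Other genes of the BCR pathway, a list of 68 of which 66 were listed in the files, were read in the same fits. In Xbp1-deficient PBs 13 were lower and 9 higher of 63 tested, which is 34.9% against 28.3% of all genes. *Pag1*, a membrane adaptor that restrains Src kinases, fell from 9.38 and 8.13 to 3.47 and 3.25 TPM (-1.56 ± 0.16), the immediate-early gene *Egr2* from 60.2 and 50.7 to 23.6 and 31.8 TPM (-1.22 ± 0.19) and the adaptor *Lat2* from 196 and 215 to 110.2 and 111 TPM (-1.10 ± 0.08). The largest increases were those of the RAS exchange factors *Rasgrp2* and *Rasgrp1*, from 9.03 and 9.74 to 22.3 and 18.2 TPM and from 18.3 and 18.1 to 32.2 and 40.9 TPM, and of the adaptor *Dok1* at 0.47. In *Bhlha15* CreER/CreER PBs none of the 63 passed an adjusted p of 0.05 in limma and 12 had an unadjusted p under 0.05, as 10.4% of all genes did. Xbp1-deficient PBs were lower than these in 13 and higher in 14, 42.9% against 27.1% of all genes, led by *Fos*, *Egr2* and *Pag1* at -1.99, -1.70 and -1.10 and by *Rasgrp2*, *Rasgrp1* and *Nfatc2* at 0.93, 0.88 and 0.61. The change of *Fos* had a standard error of 0.45 and libraries at 189 and 504 TPM in *Bhlha15* CreER/CreER PBs. *Fos* was at 86.6 and 98.8 TPM in Xbp1-deficient PBs, within the range of control PBs at 126 and 73.8 TPM.

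In Mist1-deficient PCs 16 of 65 pathway genes were lower and 6 higher, 33.8% against 29.5% of all genes. *Myc* fell from 64.5 and 65.4 to 36.6 and 38.9 TPM (-0.76 ± 0.07) and the inhibitory adaptor *Dok3* from 277 and 266 to 153 and 172 TPM (-0.72 ± 0.08). *Cd5*, a negative regulator of antigen receptor signals, rose from 7.85 and 6.67 to 12.1 and 14.0 TPM (0.86 ± 0.15), and *Relb*, an NF-kB subunit, was higher by 0.35. *Cd5* was below 1 TPM in all 6 PB libraries. The T cell markers summed to 119.2 and 120.1 TPM in wildtype and 134.9 and 176.7 TPM in Mist1-deficient PCs, and their part in the change of *Cd5* was not tested. In wildtype PCs against control PBs 30 of 66 were lower and 26 higher, 84.8% against 76% of all genes. *Gab1*, *Vav3* and *Egr2* were lower at -4.21, -2.09 and -1.84, and *Pirb*, *Ptprj* and *Fos* were higher at 5.36, 4.77 and 4.47. *Fos* was at 126 and 73.8 TPM in control PBs and 2544 and 2119 TPM in PCs, and *Pirb*, also known from myeloid cells and with a fold change that depends on the pseudocount of 0.1, was at 0.0988 and 0.0880 TPM in control PBs and 6.86 and 10.2 TPM in wildtype PCs.

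Mist1 binding was read at 37 of the 38 genes, since *Syk* did not match an entry of the annotation used. All 37 had a common Mist1 region within the gene or 10 kb of it and 32 (86.5%) had one at a TSS, where 83.9% and 65.2% of 10592 genes tested in PCs had one. The 37 genes were longer than these, with a median of 41235 bp against 22142.5 bp, and no test was made. *Pik3ap1* and *Prkcb*, both lower in Mist1-deficient PCs, had the most regions with 12 each, followed by *Nfatc1* with 11, and *Plcg2* and *Vav2* with 9 each. *Nfatc1* did not pass the test and *Plcg2* was higher. *Fcgr2b*, with the largest change, had 3 regions, and *Cd81* had 2 and none at a TSS. *Siglecg* and *Fcer2a*, which did not pass the test in Mist1-deficient PCs, had 1 region each, outside the gene body. The binding was measured in LPS-stimulated PBs and the RNA in iGB-derived PBs and splenic PCs.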

How the data were processed

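Reads were adapter-trimmed by the authors with cutadapt, aligned with STAR 2.4.2 to mm9, counted per gene with featureCounts 1.5 and deposited as TPM without immunoglobulin and T cell receptor genes. The directional kit is stated and the strand setting of the counting is not given in the sources used here. Mist1 peaks were called by the authors with Bowtie 1.0.0 and MACS, one list of deposited positions per experiment, and the peak score column was not used. Here libraries were scaled by the median of ratios, and genes with at least 1 TPM in 2 libraries were fitted as log2(scaled TPM + 0.1) with limma 3.58.1 (lmFit, eBayes with trend) in R 4.3.3, so that fold changes of low genes are understated. The 6 PB libraries, the 4 PC libraries and, for PCs against PBs and the interaction, all 10 libraries formed the models. Groups came from the genotype labels. P-values were adjusted by the Benjamini-Hochberg method across every gene in the fit. An exact permutation test of 2 against 2 libraries cannot fall below a p of 0.333. Among genes at 1 TPM or more in both libraries of a group, none had the same value in both. The fit was tested on simulated data. Common regions are peaks of both lists sharing at least 1 bp, merged with bedtools 2.31.1, and were placed by protein-coding genes of GENCODE M1. All 38 genes are named by role, and of other pathway genes the 3 with the largest change in each direction, some of which are not reported here. The genes, lists and rules were chosen with earlier results of these data known. Alternatives were other scalings, pseudocounts, filters and eBayes settings, other models, each library left out in turn, and other peak rules.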

Additional observations from a re-analysis of the deposited data

Results flagged for a closer look

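The difference between the Mist1 effect in PCs and the CreER effect in PBs, tested as an interaction in limma, passed an adjusted p of 0.05 for 6 of the 38 genes and for 6.11% of all genes. It was -1.08 for *Fcgr2b*, -0.89 for *Fyn*, -0.63 for *Pik3ap1* and -0.43 for *Pik3cd* on the log2 scale, where negative values mean a lower effect in PCs, and 0.44 for *Cd81* and 0.34 for *Rasgrp3*. *Fyn* illustrates the values behind it, at 209.6 and 210.1 TPM in control and 219.6 and 229 TPM in *Bhlha15* CreER/CreER PBs and at 51.4 and 47.6 TPM in wildtype and 25.8 and 32.0 TPM in Mist1-deficient PCs. Of the other pathway genes named, the same test gave -1.12 for *Egr2*, -0.63 for *Myc* and -0.53 for *Dok3*. The PB arm has controls of another genotype, a germline CreER allele and a culture in place of a mouse, and these cannot be told apart from the cell stage.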

How the results depend on the processing

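No paired analysis was possible because the labels carry no replicate numbers, and the libraries were numbered in accession order. The numbers of lower and higher genes among the 38 in wildtype PCs against control PBs and in *Bhlha15* CreER/CreER PBs stayed within 1.5 times the reported count in all 13 alternatives. In Xbp1-deficient against control PBs, 16 genes were higher with TPM as deposited and 12 after quantile normalization, and against *Bhlha15* CreER/CreER PBs 19 and 15, with 5 lower after quantile normalization. The split of all genes into lower and higher in Xbp1-deficient against control PBs was 2186 and 1250 as reported, 1357 and 3423 with TPM as deposited, 1965 and 2511 after quantile normalization and 2126 and 2073 in a model of all 10 libraries. In Mist1-deficient PCs the fit without trend gave 7 lower and 1 higher of the 38 genes, and 1396 and 844 of all genes. For the interaction it gave 0 and 0 of the 38 genes, and 227 and 96 of all genes. With 1 library left out at a time, the range of lower and of higher genes was 6 to 11 and 5 to 6 in Xbp1-deficient against control PBs, 6 to 11 and 4 to 8 against *Bhlha15* CreER/CreER PBs, 7 to 18 and 1 to 8 in Mist1-deficient PCs, 10 to 12 and 18 to 21 in PCs against PBs, and 0 to 5 and 0 to 3 for the interaction. In PCs against PBs, quantile normalization turned *Cd24a* to 0.0261 and *Cd79a* to 0.000597. Single calls were retained in all alternatives for 26 of 33 genes in PCs against PBs, 11 of 19 in Xbp1-deficient against control PBs, 9 of 16 against *Bhlha15* CreER/CreER PBs, 7 of 16 in Mist1-deficient PCs and 0 of 6 for the interaction. Other peak rules left 35 to 37 of 37 genes with a region and 30 to 33 with one at a TSS. The cause of these shifts was not tested. TPM keep no depth, so that no counting error could be given.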
